A study of Mus musculus with 6 samples.

Results

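The genes described here are 10 genes of high-density lipoprotein (HDL) formation and remodelling: Abca1, Abcg1, Lcat, Pltp, Lipc, Lipg, Apoa2, Apom, Apof and Scarb1. They were chosen by their known roles, at a time when earlier results of these data were known. Each level is the sum over the transcripts that the table pairs with the gene's symbol, in TPM, a length-corrected share of all transcripts in a library. The table held 35540 gene symbols, of which 14189 reached a mean of 0.1 TPM over the 6 mice, and all 10 genes were among these.

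HDL begins as a lipid-poor particle when the transporter ABCA1 loads phospholipid and cholesterol onto apolipoprotein A-I, which the liver and intestine secrete. The plasma enzyme LCAT then esterifies the cholesterol, so that the disc becomes a sphere, while the phospholipid transfer protein PLTP and the hepatic and endothelial lipases change its size and lipid content. At the hepatocyte surface the receptor SR-BI, encoded by Scarb1, takes up cholesteryl esters from HDL. Mouse plasma carries most of its cholesterol in HDL.

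RNA came from the livers of 6 mice on the C57BL/6J background: 3 were Surf4 fl/fl Alb-Cre+, and 3 littermates of genotype Surf4 fl/fl Alb-Cre- served as controls. SURF4 is a receptor that loads secreted proteins into vesicles leaving the endoplasmic reticulum, and the comparison asks how hepatic mRNAs differ when hepatocytes lack it. Mice of both genotypes carried Surf4 alleles with exon 2 between loxP sites, and only the Alb-Cre+ mice carried Cre, under the albumin promoter. The study holds it likely that the intact Surf4 mRNA left in these livers comes from cells other than hepatocytes. Excision by cell type was not measured here. Each genotype held 2 males (replicates 1 and 3) and 1 female (replicate 2), and the study's mice were fasted overnight before collection. The age of these 6 mice and any treatment are not given in the sources used here.

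Surf4 itself stood at 59.0, 71.8 and 54.3 TPM in the Alb-Cre+ mice and at 92.5, 94.5 and 92.5 TPM in the controls, with no overlap. Its mean difference was -0.60 on the log2 scale (SE 0.13, n = 3 mice per genotype), and the summed TPM includes transcripts without exon 2. All 6 hepatocyte markers were present, with a summed level of 49925 to 69104 TPM in the Alb-Cre+ mice and 62684 to 68121 TPM in the controls. Between 10059 and 11125 genes per mouse reached 1 TPM, and read depth is unknown because the values are TPM. The libraries of both female mice stood apart from the 4 male libraries, so the estimate of each of the 10 genes is also given for the males alone where that turns its direction. In bulk liver, fewer cells of a type and less RNA per cell cannot be told apart.

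Several of these genes make more than 1 mRNA, and the sequences below show the choices that the summed values contain. Scarb1 lies on chromosome 5, minus strand, chr5:125277087-125341094 (GRCm38). Its exon 12, chr5:125281105-125281233, encodes the end of the cytoplasmic tail of SR-BI and closes with the stop codon in capitals. Scarb1-201 (SR-BI) contains this exon, and Scarb1-202 (SR-BII) skips it and joins exon 11 to the last exon, which then supplies another tail. In the pair of junctions, exon 11 is in lower case and the exon that follows it is in capitals.
Scarb1-201 exon 12: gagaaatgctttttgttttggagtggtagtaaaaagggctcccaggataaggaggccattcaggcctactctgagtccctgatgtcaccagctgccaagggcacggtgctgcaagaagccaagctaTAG
Scarb1-201 junction: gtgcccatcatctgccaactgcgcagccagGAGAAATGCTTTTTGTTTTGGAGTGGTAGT
Scarb1-202 junction: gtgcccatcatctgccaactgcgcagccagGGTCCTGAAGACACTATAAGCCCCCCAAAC

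Lipc, on the minus strand at chr9:70798128-70952226, gives Lipc-201, with 9 exons and 1530 coding bases, and Lipc-202, a short annotated transcript of 3 exons and 376 bases. Both share exon 2, in lower case here, and differ in the exon joined to it, in capitals.
Lipc-201 junction: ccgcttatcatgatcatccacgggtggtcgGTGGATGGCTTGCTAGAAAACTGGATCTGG
Lipc-202 junction: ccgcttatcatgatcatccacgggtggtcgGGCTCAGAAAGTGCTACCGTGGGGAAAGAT

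RefSeq (GRCm38.p6) lists a pair of starts for Lipc, and the TPM values fall on 1 of them: Lipc-201, which begins at the proximal start, and Lipc-202, which begins within the same first exon, carried all Lipc TPM, while Lipc-203 and Lipc-204 were listed at 0 TPM in all 6 mice. The 250 bases before each start are printed 5′ to 3′ on the gene's strand, with matches to GGGCGG and AGGTCA on either strand in capitals.
Lipc proximal, chr9:70934809-70935058: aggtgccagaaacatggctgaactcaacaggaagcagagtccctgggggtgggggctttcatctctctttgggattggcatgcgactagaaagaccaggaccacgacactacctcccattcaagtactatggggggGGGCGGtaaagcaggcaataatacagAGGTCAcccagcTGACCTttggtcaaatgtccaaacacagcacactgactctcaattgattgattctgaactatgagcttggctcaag
Lipc distal, chr9:70952222-70952471: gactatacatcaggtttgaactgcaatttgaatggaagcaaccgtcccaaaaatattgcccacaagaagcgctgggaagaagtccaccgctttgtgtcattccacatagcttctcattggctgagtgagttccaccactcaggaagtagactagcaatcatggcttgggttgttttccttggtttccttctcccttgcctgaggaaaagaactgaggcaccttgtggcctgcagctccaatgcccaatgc
The proximal window holds GGGCGG, beginning 114 bases before the start, and AGGTCA at 88 bases and, as its reverse complement, at 76 bases. The distal window holds neither of these, and neither window holds TATAAA. Over 32851 RefSeq promoter windows of the same 250 bases, 12.37% hold TATAAA, 32.74% GGGCGG and 14.02% AGGTCA, so these matches are common and are given as a description. Promoter sequences were matched for 6 of the 10 genes.

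The 10 genes spanned a wide range of hepatic mRNA levels. Apoa2, the second most abundant HDL protein, had a mean of 18057 TPM over all 6 mice, ranked 5 among all genes and took 1.81% of all TPM. Apof (756 TPM), Lcat (471 TPM) and Apom (275 TPM) followed, then Scarb1 (93.0 TPM) and Lipc (83.0 TPM). Pltp (28.6 TPM), Abca1 (12.5 TPM), Lipg (4.26 TPM) and Abcg1 (1.87 TPM) were the lowest. The secreted apolipoproteins and LCAT thus lay above the receptor, the lipases and the transporters. Between neighbours in this order, the ranges over the 6 mice were separate for Apoa2 and Apof, for Lcat and Apom, for Apom and Scarb1, and for Lipc and Pltp. The other neighbours overlapped: Scarb1 was above Lipc in 4 of 6 mice, Abca1 above Lipg and Lipg above Abcg1 in 5 of 6, and Apof above Lcat and Pltp above Abca1 within each of the 6 mice.

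**Figure D1:**
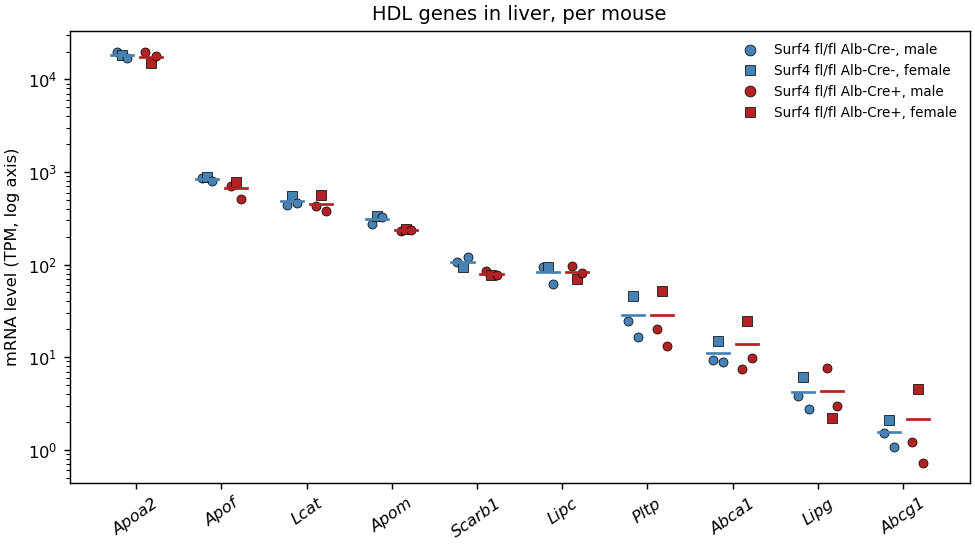
Level of each of the 10 genes in TPM on a log axis, with genes ordered by mean; each point is 1 mouse, squares are females, circles are males, and bars are genotype means (n = 3). Apoa2 lies near 18057 TPM and Abcg1 near 1.87 TPM, and red and blue points are apart for Apof, Apom and Scarb1.

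None of the 10 genes passed the test between genotypes, and 0% of the 14189 genes did. The test was limma on log2(TPM + 0.1) with Benjamini-Hochberg adjustment at 0.01. The study itself, using DESeq2, reports some up- and downregulated transcripts at a false discovery rate under 0.01. The 0% is therefore a result of the limma test on TPM. Every adjusted p of the 10 genes was 0.999904 (limma), and so was that of Surf4, the targeted gene. The smallest adjusted p over all genes was 0.4556 (limma). A gene that did not pass is therefore not shown to be unchanged. At an unadjusted p under 0.05, Scarb1 and Apom were counted, 2 of the 10 genes, beside 1.76% of all genes (250 genes). With the replicate number as a block, Apof joined them, giving 3 of 10 beside 4.69% (666 genes). Scarb1, Apom and Apof were also the 3 genes whose values in all Alb-Cre+ mice lay below those in all controls, beside 2.71% of all genes lower without overlap and 4.9% without overlap in either direction. No gene of the 10 was higher without overlap. The estimates ran from -0.42 to 0.17 on the log2 scale, with 7 of 10 below 0 and a median of -0.12, beside 50.4% below 0 and a median of -0.0017 over all genes. Within pairs of the same replicate number, the median of the 10 differences was -0.27, -0.23 and -0.31. The median of the estimates was -0.24 in the males alone, -0.36 without the Alb-Cre+ female and 0.04 without the control female.

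**Figure D2:**
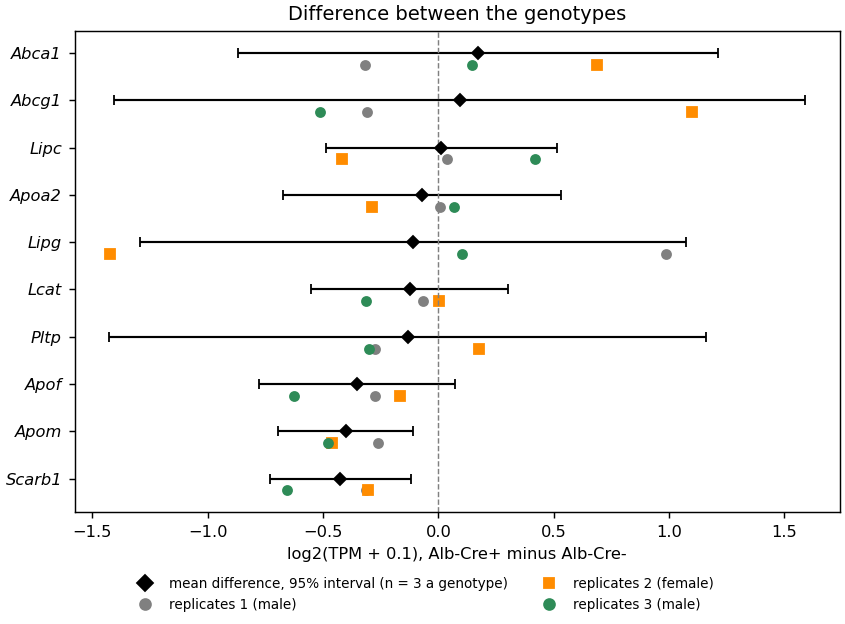
Difference between genotypes on the log2(TPM + 0.1) scale for each gene; diamonds are mean differences with 95% intervals from limma (n = 3 per genotype), and smaller points are the differences within replicate numbers 1, 2 and 3, of which number 2 is female. Scarb1, Apom and Apof lie below 0 in every pair, and the intervals of Abcg1, Pltp and Lipg are the widest.

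Scarb1, the HDL receptor, was lower in the Alb-Cre+ livers without reaching the threshold. It stood at 85.0, 76.5 and 76.3 TPM in the Alb-Cre+ mice and at 106, 94.5 and 120 TPM in the controls. The highest Alb-Cre+ mouse thus lay below the lowest control, and the mean was 79.2 ± 4.96 TPM against 107 ± 12.9 TPM (SD, n = 3 each), a ratio of 0.742. The difference was -0.42 on the log2 scale (SE 0.13, 95% interval -0.73 to -0.12, unadjusted p = 0.0134, limma). The 2-sided exact permutation test gave p = 0.1, the smallest it can give with 3 mice against 3. In the males alone the difference was -0.48, and leaving out 1 mouse at a time gave -0.51 to -0.34.

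Apom and Apof, a pair of apolipoproteins made in the liver, were also lower. APOM carries sphingosine-1-phosphate on HDL, and APOF is known as an inhibitor of lipid transfer between lipoproteins. Apom stood at 230, 245 and 236 TPM in the Alb-Cre+ mice and at 276, 337 and 329 TPM in the controls. The Alb-Cre+ values were close together, with a coefficient of variation of 3.21%, and none reached a control; the ratio of means was 0.754. The log2 difference of Apom was -0.40 (SE 0.12, 95% interval -0.69 to -0.11, unadjusted p = 0.0143, limma). With the block, Apom had the smallest adjusted p of the 10 genes, 0.679 (limma).

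Apof stood at 711, 779 and 516 TPM in the Alb-Cre+ mice and at 860, 873 and 796 TPM in the controls. The control values were close together, the third Alb-Cre+ mouse was the lowest of all, and the groups did not overlap. The log2 difference of Apof was -0.35 (SE 0.18, 95% interval -0.78 to 0.07, unadjusted p = 0.0889, limma), and with the block the unadjusted p was 0.0324 (limma). Without the third Alb-Cre+ mouse the difference was -0.18.

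The separation of Scarb1 and Apom depended on how the libraries were scaled. After dividing each library by a size factor, the median of its ratios over genes, Scarb1 was 86.3, 62.9 and 89.5 in the Alb-Cre+ mice and 106, 87.1 and 128 in the controls, in scaled TPM. The third Alb-Cre+ mouse then lay just above the control female. Scaled Apom was 233, 201 and 276.6 against 275.7, 310.1 and 351, so that 1 Alb-Cre+ value passed the lowest control by less than 1. Only Apof remained without overlap, 1 of 10 genes beside 2.89% of all genes under this scaling. Within pairs the scaled differences stayed below 0 in 3 of 3 pairs for Scarb1 (-0.29, -0.47 and -0.52), Apom (-0.24, -0.62 and -0.34) and Apof (-0.25, -0.33 and -0.49). The fitted log2 differences hardly moved, at -0.43, -0.40 and -0.36, but their standard errors did. After scaling the SE was 0.20 for Scarb1, 0.17 for Apom and 0.14 for Apof. The unadjusted p values were then 0.0722, 0.0486 and 0.0428 (limma), so Apom and Apof, and no longer Scarb1, were under 0.05.

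Apoa2, by far the most abundant of the 10 genes, overlapped between genotypes. It stood at 19875, 15056 and 18031 TPM in the Alb-Cre+ mice and at 19773, 18387 and 17222 TPM in the controls. The groups overlapped, the Alb-Cre+ female was the lowest, and the means differed by less than the spread within the Alb-Cre+ mice (17654 ± 2431 against 18461 ± 1277 TPM, SD, n = 3 each). The log2 difference was -0.07 (SE 0.25, 95% interval -0.67 to 0.53), and in the males alone it was 0.04.

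Lcat, the enzyme that esterifies HDL cholesterol, overlapped between genotypes. It stood at 425, 558 and 377 TPM in the Alb-Cre+ mice and at 444, 557 and 468 TPM in the controls. Both females were above all 4 males, and the females of the 2 genotypes were nearly equal. On the log2 scale Lcat differed by -0.12 (SE 0.18, 95% interval -0.55 to 0.30). In the males alone the 2 Alb-Cre+ mice were below the 2 controls, with a difference of -0.19, and leaving out 1 mouse at a time gave -0.28 to -0.0018.

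Pltp, whose product moves phospholipid from other lipoproteins into HDL, stood at 20.2, 51.5 and 13.3 TPM in the Alb-Cre+ mice and at 24.4, 45.5 and 16.5 TPM in the controls. The female again had the highest value in each genotype, and the groups overlapped. On the log2 scale Pltp differed by -0.13 (SE 0.55, 95% interval -1.43 to 1.16), so a change of about 1 log2 unit either way lies inside the interval. Of the stretches of 31 bases in the Pltp transcripts, 13.9% also occur in Ctsa, which overlaps it on the opposite strand. Whether the library kept strand is not given in the sources used here, so in that overlap the 2 genes cannot be told apart.

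Hepatic lipase (Lipc) and endothelial lipase (Lipg), which hydrolyse HDL phospholipid and triglyceride, did not differ beyond their spread. Lipc stood at 97.3, 69.8 and 81.7 TPM in the Alb-Cre+ mice and at 94.9, 93.3 and 61.0 TPM in the controls. The ranges were nearly the same, and the log2 difference was 0.01 (SE 0.21, 95% interval -0.49 to 0.51). Lipg stood at 7.71, 2.21 and 2.94 TPM in the Alb-Cre+ mice and at 3.85, 6.09 and 2.73 TPM in the controls. The first Alb-Cre+ male was highest and the Alb-Cre+ female lowest of all 6. The log2 difference of Lipg was -0.11 (SE 0.50, 95% interval -1.29 to 1.07), and it was 0.54 in the males alone.

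The efflux transporters were led by the Alb-Cre+ female. Abca1, which loads lipid onto apolipoprotein A-I, stood at 7.53, 24.4 and 9.89 TPM in the Alb-Cre+ mice and at 9.41, 15.1 and 8.92 TPM in the controls. The female was highest in each genotype, while the 4 males lay between 7.53 and 9.89 TPM. The log2 difference of Abca1 was 0.17 (SE 0.44, 95% interval -0.87 to 1.21), and in the males alone it was -0.09.

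Abcg1, which moves cholesterol to formed HDL and is expressed strongly in macrophages, stood at 1.22, 4.57 and 0.726 TPM in the Alb-Cre+ mice and at 1.53, 2.08 and 1.08 TPM in the controls. The value of 4.57 TPM included 2.25 TPM of Abcg1-203, a short annotated transcript listed at 0 in the other 5 mice. The estimate for Abcg1 was 0.09 on the log2 scale (SE 0.63, 95% interval -1.40 to 1.59). It was -0.22 without that transcript and -0.41 in the males alone.

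Abca1, Abcg1, Lcat and Pltp were thus higher in both females than in all 4 males. That is 4 of 10 genes, near the share of 36.6% over all genes, so it does not set the 10 genes apart. At an unadjusted p under 0.05 for sex (limma), 4 of 10 genes were counted, beside 4072 of the 14189 genes. With genotype in the model, female minus male was 1.10 for Abca1 (SE 0.22, adjusted p = 0.0354, limma) and 1.41 for Pltp (SE 0.24, adjusted p = 0.0249, limma) on the log2 scale. For Abcg1 it was 1.41 (SE 0.41, adjusted p = 0.0849, limma) and for Lcat 0.38 (SE 0.12, adjusted p = 0.0934, limma). None of the 10 passed 0.01, beside 0.514% of all genes (73 genes). The summed level of 7 Kupffer cell and macrophage markers was 469 to 505 TPM in the females and 128 to 198 TPM in the males, with 7 of 7 markers above all males in both females and none at 0. Sinusoidal endothelial markers were at 156 to 183 TPM against 73.9 to 124 TPM, with 5 of 6 markers above all males in both females. Neutrophil markers were at 145 to 298 TPM against 23.5 to 53.7 TPM, with 4 of 4 above. The stellate, B and plasma cell, and T and NK cell sums were also higher in both females. In these lists fewer members followed the sum, with 2 of 5, 3 of 5 and 2 of 4 markers above all males in both females. The stellate sum was 197 to 205 TPM against 72.1 to 151 TPM, and most of it was Dcn. The erythroid sum was lower in both females (68.2 to 88.0 against 122.7 to 282 TPM), though Hba-a1 overlapped between the sexes. The part of these cells in the 4 genes was not tested, and sex cannot be told apart from replicate number 2. The effect of genotype was not shown to differ between the sexes for any of the 10 genes (interaction, smallest adjusted p = 0.775, limma), but with 1 female per genotype this test had little power.

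**Figure D3:**
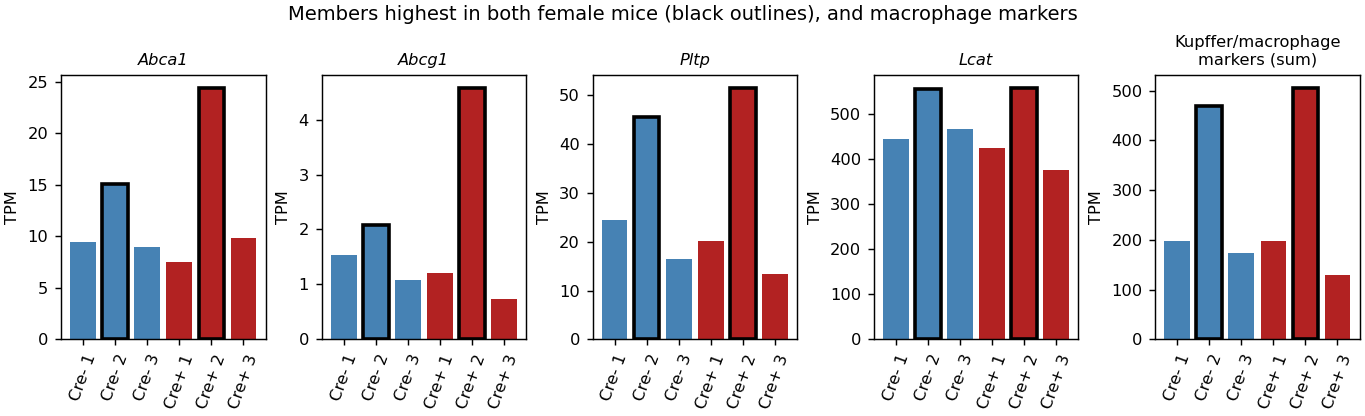
Level in TPM of Abca1, Abcg1, Pltp, Lcat and of the sum of 7 Kupffer cell and macrophage markers in each mouse; bars start at 0, blue is Alb-Cre-, red is Alb-Cre+, and black outlines mark the females (replicate 2). In every panel both females are above all 4 males, with marker sums of 469 to 505 TPM against 128 to 198 TPM.

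Between genotypes, the summed levels of 9 of 10 marker lists overlapped, the macrophage list among them (128 to 505 TPM in the Alb-Cre+ mice and 174 to 469 TPM in the controls). The list for smooth muscle, fat or gut did not, at 35.5 to 49.7 TPM against 107 to 165 TPM. Nearly all of that sum was Fabp2, at 49.0, 47.8 and 34.9 TPM in the Alb-Cre+ mice and at 144, 164 and 106 TPM in the controls. The other 5 genes of that list overlapped between genotypes, and none was at 0 in all mice. Myh11, Actg2 and Plin1 were lower on average in the Alb-Cre+ mice, and Vil1 and Adipoq were higher. Vil1 and Adipoq were near the floor, with means of 0.0892 and 0.123 TPM over the 6 mice. In each of them 1 Alb-Cre+ mouse was the highest, at 0.340 TPM for Vil1 and 0.247 TPM for Adipoq. A sum can hide its members: the hepatocyte marker Ttr was at 3867 ± 440 TPM in the Alb-Cre+ mice and 4973 ± 106 TPM in the controls (SD, n = 3 each), lower without overlap at a ratio of 0.778. The stellate cell marker Col3a1 was also lower without overlap (2.67 ± 0.480 against 3.69 ± 0.660 TPM, SD, n = 3 each). Its females were close, at 3.16 TPM in the Alb-Cre+ mouse and 3.22 TPM in the control. Ttr and Col3a1 were 1 of 6 hepatocyte and 1 of 5 stellate markers, beside 2.71% of all genes lower without overlap. The other members of both lists overlapped between genotypes. The part of these cells in the lower Scarb1, Apom and Apof values was not tested.

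Both Scarb1 forms, SR-BI and SR-BII mRNA, had lower values in the Alb-Cre+ mice, and no test passed. Scarb1-201 was at 51.4 ± 6.59 TPM in the Alb-Cre+ mice and 70.4 ± 10.2 TPM in the controls, and Scarb1-202 at 26.2 ± 3.13 and 33.2 ± 2.82 TPM (SD, n = 3 each), each without overlap (exact permutation p = 0.1, the smallest possible). After scaling by the median of ratios both overlapped: the highest Alb-Cre+ value was 59.0 for Scarb1-201 and 34.8 for Scarb1-202, above the lowest control values of 55.1 and 29.1. Scarb1-201 made up 64.7 ± 5.11% of Scarb1 TPM in the Alb-Cre+ mice and 65.8 ± 2.26% in the controls (SD, n = 3 each). The share of Scarb1-202 was 33.2 ± 4.98% against 31.2 ± 1.90% (SD, n = 3 each), and over all 6 mice it ran from 29.8 to 38.9%. The shares overlapped between genotypes. The junctions and exon 12 printed above show where the coding sequences of the pair part. The last exon of Scarb1-202 holds 117 coding bases, which are untranslated in Scarb1-201, and only the first 30 of them are printed. The pair also differ in the annotated ends of their first and last exons.

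For Lipc, the full-length Lipc-201 took 68.8 to 80.2% of TPM and Lipc-202 took 19.8 to 31.2%. A TPM value is divided by transcript length, so a transcript of 376 bases needs few reads for such a share. Apoa2 was split almost evenly between Apoa2-204 (49.3 to 51.5%) and Apoa2-201 (45.9 to 48.0%). Both have the same 306 coding bases and differ in untranslated sequence. They differ at their outer ends and at the start of exon 2, which has 80 bases in Apoa2-204 and 83 in Apoa2-201. Abca1 was mostly Abca1-201 (92.5 to 100%), and Apom and Lcat had 1 transcript each.

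**Figure D4:**
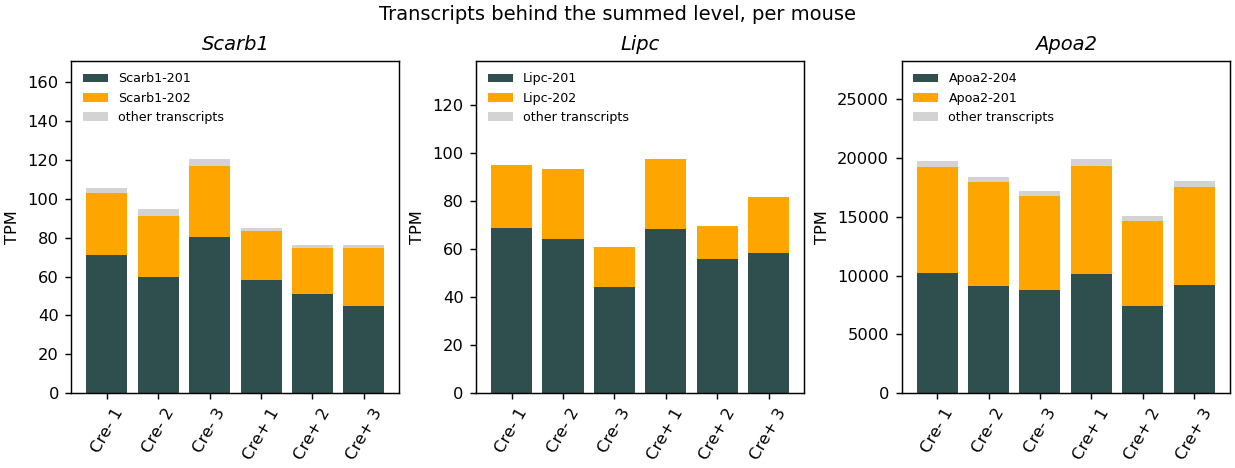
TPM of the main transcripts of Scarb1, Lipc and Apoa2 in each mouse, stacked from 0, with controls (Cre-) left and Alb-Cre+ mice (Cre+) right; dark is the transcript with the largest share, orange the next, and grey all others. Scarb1 bars are shorter in the Alb-Cre+ mice while Scarb1-202 keeps 29.8 to 38.9% of each bar.

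The genes whose profile over the 6 mice was most like that of Scarb1, by root mean square difference of centred log2(TPM + 0.1) values, were Gstm2 (0.0741), Mrps31 (0.0793) and Rfc3 (0.0846), among 10634 genes that averaged 1 TPM or more. The profile of Scarb1 itself had a root mean square of 0.240. Gstm2, a glutathione transferase, stood at 40.7, 35.4 and 35.9 TPM in the Alb-Cre+ mice and at 51.6, 42.1 and 50.3 TPM in the controls. Mrps31, a mitochondrial ribosomal protein, and Rfc3, a subunit of the clamp loader of DNA replication, had means of 27.0 and 2.58 TPM.

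Of 18 other HDL apolipoproteins and particle proteins, 17 were tested and none passed the threshold. The estimates were below 0 for 15 of 17, with a median of -0.26 on the log2 scale, and 7 were lower in the Alb-Cre+ mice without overlap, beside 2.71% of all genes. After scaling by the median of ratios, 5 were lower without overlap, beside 2.89%. At an unadjusted p under 0.05, 4 had lower and none higher estimates, beside 1.76% of all genes in either direction, and 6 were lower with the block, beside 4.69%. Apoa1, the main protein of HDL and the acceptor for ABCA1, stood at 10222, 9779 and 8802 TPM in the Alb-Cre+ mice and at 17603, 20844 and 15764 TPM in the controls. The groups were far apart, with a log2 difference of -0.91 (SE 0.24, adjusted p = 0.999904, limma). Apoa4, an apolipoprotein of HDL and chylomicrons, stood at 224, 369 and 62.6 TPM against 1161, 3344 and 1147 TPM, a log2 difference of -3.25 (SE 0.70). Apoc2, the activator of lipoprotein lipase, differed by -1.02 (SE 0.36) and Apoc4 by -0.37 (SE 0.15). Apoe, a ligand of the LDL receptor family and the most abundant of the list, overlapped between genotypes, with -0.20 (SE 0.29). The acute phase apolipoprotein Saa1, named here after its values were seen, ranged widely, at 66.3, 7139 and 125 TPM in the Alb-Cre+ mice and at 120, 2697 and 6359 TPM in the controls.

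**Figure D5:**
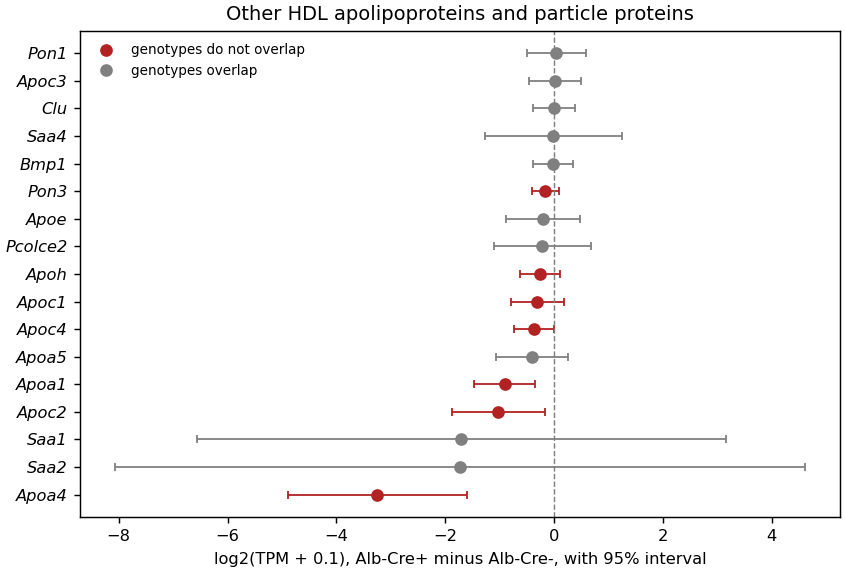
Difference between genotypes on the log2(TPM + 0.1) scale, with 95% intervals from limma (n = 3 per genotype), for 17 other HDL apolipoproteins and particle proteins; red marks genes whose genotypes do not overlap. Apoa4, Apoc2, Apoa1 and Apoc4 have intervals below 0, that of Apoc4 ending at -0.00115, and Saa1 and Saa2 have the widest intervals.

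Of 13 lipases and their regulators, 10 were tested, with 5 estimates above and 5 below 0. Lipa, the lysosomal acid lipase, was lower without overlap (60.1 ± 16.0 against 101 ± 18.4 TPM, SD, n = 3 each), with a log2 difference of -0.77 (SE 0.23). Angptl4, an inhibitor of lipoprotein lipase, had 0.50 (SE 0.22), with an unadjusted p of 0.0522 and, with the block, of 0.0085 (limma). Its genotypes overlapped, and after scaling by the median of ratios it was higher in the Alb-Cre+ mice without overlap.

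The 14 sterol-sensing and hepatic transcription regulators gave 6 estimates above and 8 below 0, with a median of -0.02. Nr1h4, the bile acid receptor FXR, was higher without overlap, by 0.29 (SE 0.15), and overlapped after scaling by the median of ratios. Hnf4a, a hepatocyte regulator of many apolipoprotein genes, had 0.08 (SE 0.18), and Rxra, the partner of LXR and FXR, had 0.04 (SE 0.20); in the males alone both were below 0, at -0.0085 and -0.090.

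Of 17 genes of hepatic cholesterol uptake and disposal, 15 were tested, with 11 estimates below 0, a median of -0.16 and none without overlap. Cyp8b1 and Cyp27a1, enzymes of bile acid synthesis, had -0.72 (SE 0.61) and -0.20 (SE 0.22). Nceh1, a cholesteryl ester hydrolase, had 0.46 (SE 0.32), and Npc1, which exports cholesterol from lysosomes, had 0.25 (SE 0.18). Of 11 other ABCA and ABCG transporters, 10 were tested, with 5 estimates on each side of 0 and a median of -0.01. Abca6 had 0.01 (SE 0.31) and lay just below 0 in the males alone, Abcg2, a transporter of drugs and urate, had 0.18 (SE 0.15), and Abca2 had 0.44 (SE 0.26). No gene of the 5 lists passed the threshold.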

How the data were processed

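Liver RNA-seq of 6 mice, 3 per genotype, was analysed. The authors deposited transcript-level TPM, which sum to 1000000 in each mouse; the table is labelled as Salmon output, while the study's methods and the submitters' processing notes also name STAR and RSEM, with GRCm38, and versions and strandedness are not given in the sources used here. TPM were summed per symbol, dropping 163 of 116748 transcripts without a symbol (0.0515 to 0.0887% of TPM per mouse). The deposited DESeq2 comparison (fold changes and p-values) was not used.

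Genes averaging 0.1 TPM or more were fitted by genotype in limma 3.58.1 (R 4.3.3) on log2(TPM + 0.1), with a trended empirical Bayes step and Benjamini-Hochberg adjustment over 14189 genes; differences on this scale understate the change of low genes. Depth is unknown, so no counting interval is given. Labels name separate replicates of each genotype, taken as separate mice. Deviations from genotype means correlated within replicate numbers (r = 0.367, 0.588 and 0.370), which pairs them by the data, not by the labels. Between males of different numbers r was 0.091 and 0.171, and between a male and a female it was -0.44 to -0.35. Number 2 is the female in both genotypes, so its pairing cannot be told apart from sex. Gene positions and transcripts came from GENCODE M21 (GRCm38), promoters from RefSeq.

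The 10 genes and all lists were chosen with earlier results of these data known. Of each list, the text names the 2 highest in TPM, the 2 with the smallest p, and any without overlap at an unadjusted p under 0.05; the 3 profiles most like that of the gene with the smallest p are also named. Some genes that this rule names are not reported here. Marker lists covered hepatocyte, Kupffer cell and macrophage, sinusoidal endothelial, stellate (72.1 to 205 TPM), cholangiocyte (2.24 to 4.02 TPM), B and plasma (2.64 to 7.27 TPM), T and NK (1.98 to 6.44 TPM), neutrophil, erythroid (68.2 to 282 TPM) and smooth muscle, fat or gut genes. Alternatives changed the pseudocount, filter, scaling, trend, threshold, covariates and the mice included.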

Additional observations from a re-analysis of the deposited data

How the results depend on the processing

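No gene of the 10 passed an adjusted p of 0.01 under any alternative run, nor 0.05. Over all genes the count of 0 at 0.01 became 6 with no filter on low values, and 0 to 1 when 1 mouse was left out (1 without Alb-Cre+ replicate 1); the cause was not tested. The count of genes among the 10 without overlap (3) became 1 after scaling by the median of ratios and was 3 to 4 when 1 mouse was left out. The median log2 difference of the 10 genes (-0.12) was -0.24 in the males alone, an alternative chosen after seeing the data, and ran from -0.36 (without Alb-Cre+ replicate 2) to 0.041 (without Alb-Cre- replicate 2). In the males alone the estimates of Abca1 (-0.086), Abcg1 (-0.41), Apoa2 (0.037) and Lipg (0.54) had the opposite sign. Leaving out 1 mouse gave -0.32 to 0.52 for Abca1, -0.63 to 0.62 for Abcg1, -0.16 to 0.039 for Apoa2, -0.19 to 0.13 for Lipc, -0.63 to 0.25 for Lipg and -0.68 to 0.29 for Pltp. Of 14 settings, 5 leave every estimate as it was by construction; under the other 9, 15 of 90 estimates for the 10 genes had the opposite sign. Those of Apom, Apof and Scarb1 kept their sign, as did that of Lcat, which came to -0.0018 without Alb-Cre+ replicate 3 and to -0.029 without Alb-Cre- replicate 2. With the replicate block, 0 of the 10 genes were called at 0.01, also at 0.05 (chosen after seeing the data), and 666 against 250 of all genes had an unadjusted p under 0.05; it changed no call at an adjusted p. At the unadjusted threshold the block also added 1 higher lipase regulator, 1 higher and 1 lower transcription regulator and 1 lower gene of cholesterol uptake and disposal. Values of list genes and Scarb1 transcripts in the males alone or after scaling were computed after seeing the data. With 3 mice per genotype, intervals for the low and variable genes Abcg1, Lipg and Pltp span more than 1 log2 unit on each side of 0.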
